A study of Homo sapiens with 12 samples.

Results

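The Hedgehog pathway was followed through 7 genes: the ligand SHH, the receptor PTCH1, the signal transducer SMO, the transcription factors GLI1, GLI2 and GLI3, and the ligand-binding target gene HHIP. The members were chosen by name, and each had 1 probe set among the 23786 of the array. RNA was taken from RUES2 cells, which are human embryonic stem cells kept as an established line, on 12 arrays in 5 groups. These were undifferentiated cells at day 0 (arrays A and C), the CD47-high sort of lung progenitors from day 15 (day 15 CD47hi, arrays B and C), cells at day 22 (arrays A and C), and cells sorted at day 36 as SCGB3A2+ or as SCGB3A2- (arrays A, B and C each). SCGB3A2 is a secretoglobin of airway epithelium. Per the labels' protocols, cells had passed through definitive endoderm and anterior foregut endoderm before the CD47 sort and were then kept in a medium low in Wnt activity. All groups come from this single cell line, the labels name no genetic change or Hedgehog agent, and no sort is named at day 0 or day 22, so that time and sorting cannot be told apart in comparisons across days.

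Hedgehog ligands are secreted, lipid-modified proteins. Without ligand, the PTCH1 receptor holds SMO inactive, and GLI3 in particular is cut into a repressor. With ligand, SMO acts through the primary cilium to free GLI proteins as activators, and PTCH1, GLI1 and HHIP are themselves switched on by them. In the developing lung, the epithelium is the source of SHH and the surrounding mesenchyme is the main tissue that responds.

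In the GRCh38.p14 annotation of RefSeq, SHH lies at chr7:155799980-155812463, SMO at chr7:129188633-129213545 and GLI3 at chr7:41960949-42264268. PTCH1 lies at chr9:95442980-95516971 and GLI1 at chr12:57459785-57472268. GLI2 lies at chr2:120735868-120992653 and HHIP at chr4:144646156-144745271. PTCH1 and HHIP are given by sequence, since both are textbook GLI targets whose levels are read here beside the ligand's. RefSeq promoter windows, each of 300 bases of which the first 250 lie before a transcript's start, were at hand for 5 of the 7 members. They were searched on both strands for GACCACCCA, the 9-base consensus bound by GLI proteins, also read as TGGGTGGTC on the other strand, with no mismatch allowed. Of 35116 windows of this length over all genes, 83 (0.236%) held it. Of the 5 windows of PTCH1, 1 held it, at positions -172 to -164 from the start, and it is set in capitals in the 250 bases before that start (chr9:95509267-95509516, minus strand, written 5′ to 3′ along the gene). The 250 bases before the HHIP start (chr4:144645906-144646155, plus strand) held no such run of letters, nor did the windows of SHH, SMO and GLI2. A match of letters is a description and no measurement of binding.
PTCH1: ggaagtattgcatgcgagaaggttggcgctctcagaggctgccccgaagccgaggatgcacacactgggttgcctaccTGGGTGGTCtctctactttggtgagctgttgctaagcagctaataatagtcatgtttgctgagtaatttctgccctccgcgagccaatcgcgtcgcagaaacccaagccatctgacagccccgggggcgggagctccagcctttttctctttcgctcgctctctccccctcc
HHIP: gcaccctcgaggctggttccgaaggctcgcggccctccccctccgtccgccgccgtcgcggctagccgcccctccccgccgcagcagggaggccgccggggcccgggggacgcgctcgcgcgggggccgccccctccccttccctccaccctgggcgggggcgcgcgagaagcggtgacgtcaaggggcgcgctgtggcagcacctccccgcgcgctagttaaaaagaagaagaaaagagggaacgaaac

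Levels are RMA values on the log2 scale, in which 1 unit is a 2-fold step, and a difference is given ± its standard error (SE) from limma. A gene was called where its p, adjusted by Benjamini and Hochberg over all probe sets, was under 0.05. Probes bind with different strength, so levels are compared between groups for 1 gene and never between genes. Nothing in the labels says that arrays of a group came from separate cultures. The p-values thus speak of the spread among these 12 arrays alone, and that spread may be technical. Replicate arrays correlated at 0.978 for day 0 and at 0.985 to 0.993 in the other groups, across probe sets. The 8 stem cell markers averaged 7.79 to 7.82 at day 0 and at most 3.74 on any later array. The 6 lung progenitor markers, with CD47 of the sort among them, averaged 7.83 to 7.97 at day 15. The sorted gene SCGB3A2 read 8.89 to 9.39 in SCGB3A2+ and 2.06 to 2.70 in SCGB3A2- cells, but also 7.24 and 7.05 at day 0.

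All 7 members differed among the 5 groups in limma's moderated F-test, in which 51.3% of all probe sets passed. The adjusted p ran from 6.83e-07 for SHH to 0.0151 for HHIP. From the lowest to the highest group mean the span was 102-fold for SHH, 7.75-fold for GLI2, 3.81-fold for SMO, 3.70-fold for GLI3, 3.12-fold for GLI1, 2.40-fold for PTCH1 and 1.64-fold for HHIP. For HHIP the adjusted p was 0.0655 without day 0 A and 0.0788 without day 0 C, and every array lay below 2.96, the 40th percentile of all values.

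**Figure D1:**
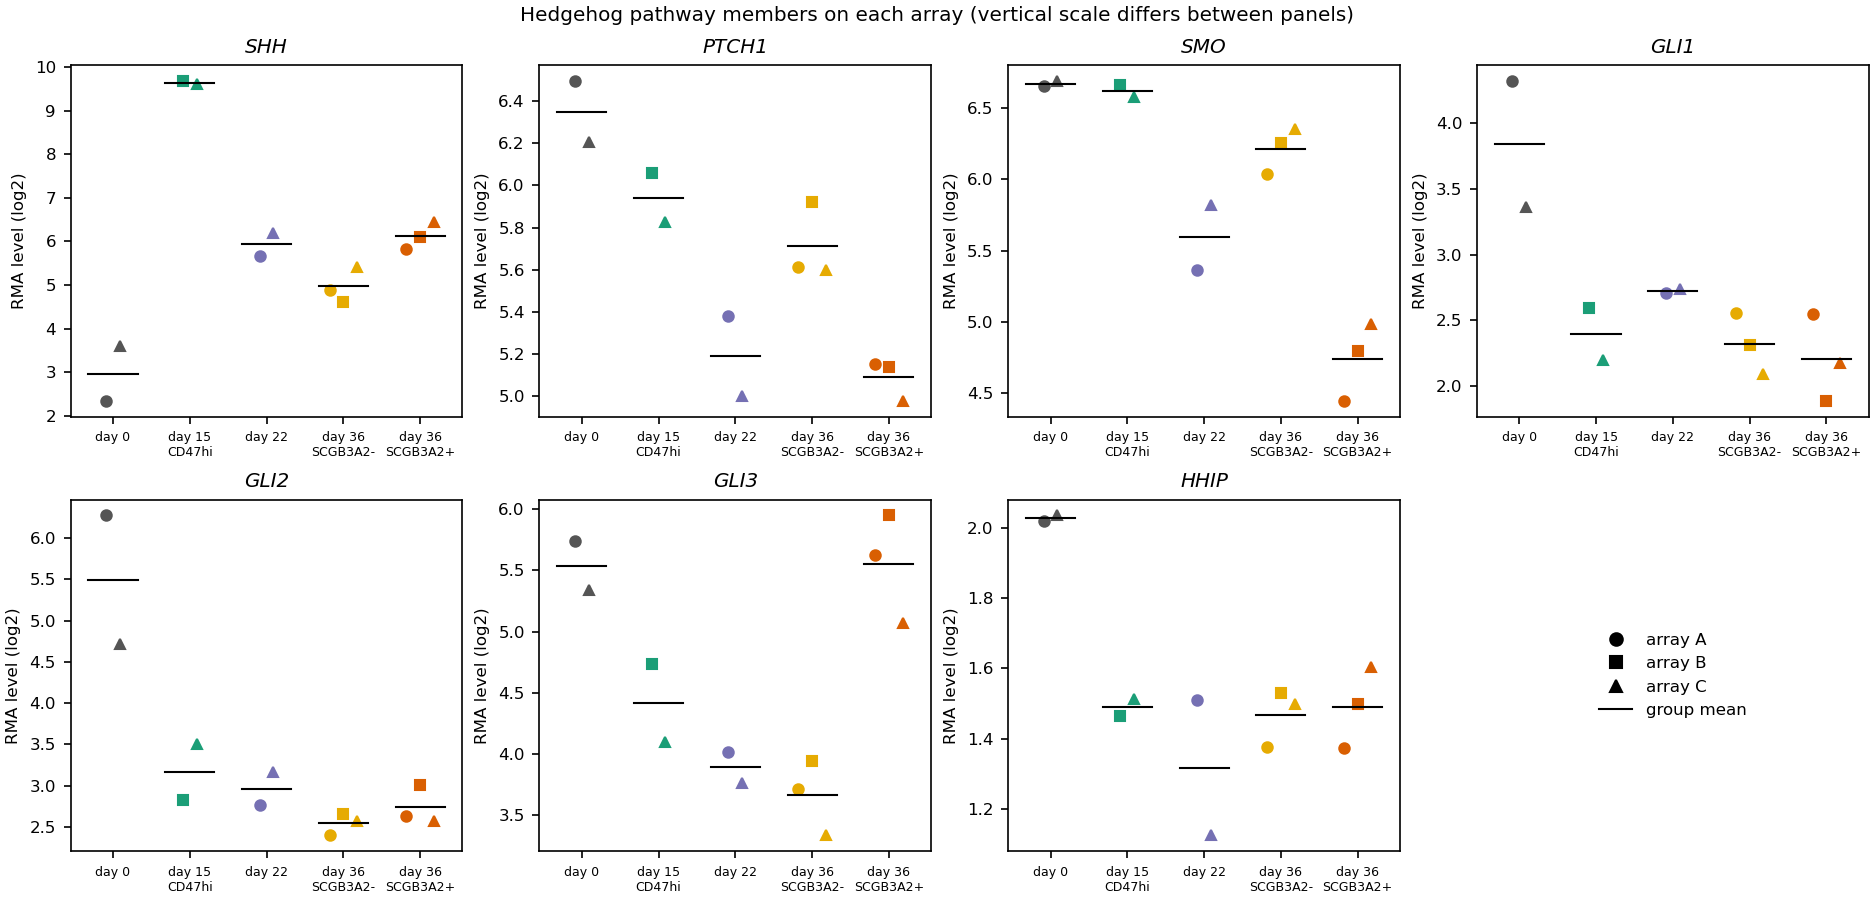
RMA level (log2, vertical axis) of each member on the 12 arrays, by group; symbols give the replicate letter and black bars the group mean, and the vertical scale differs between panels. SHH peaks at day 15 with 9.68 and 9.61, GLI1, GLI2 and HHIP are highest at day 0, and GLI3 and SMO part the sorts of day 36 in opposite directions.

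SHH, the ligand, was low in stem cells, highest in sorted lung progenitors and intermediate afterwards. It read 2.34 and 3.59 on the day 0 arrays, 9.68 and 9.61 at day 15, and 5.68 and 6.19 at day 22. At day 36 it read 5.83, 6.09 and 6.45 in SCGB3A2+ cells and 4.89, 4.60 and 5.41 in SCGB3A2- cells. Both day 15 arrays stood above all others and both day 0 arrays below all others. From day 0 to day 15 SHH rose by 6.68 ± 0.38 (102-fold, adjusted p = 1.75e-07), and of the 23786 probe sets only 4 had a larger increase. The 2 day 0 arrays differ, 1 of them lying below the 40th percentile of all values, and the rise was 6.05 without day 0 A and 7.30 without day 0 C. From day 15 to day 22 it fell by 3.71 (SE 0.38, 13.1-fold, adjusted p = 3.89e-05). It remained above day 0 at day 22 (2.97 ± 0.38), in SCGB3A2+ cells (3.16 ± 0.34) and in SCGB3A2- cells (2.002 ± 0.34, adjusted p = 6.32e-04). These differences were 2.34, 2.53 and 1.38 without day 0 A and 3.59, 3.78 and 2.63 without day 0 C. In order of means, day 15 lay above SCGB3A2+, and SCGB3A2- lay above day 0. SCGB3A2+ and day 22 did not pass limma's test (0.19 ± 0.34, adjusted p = 0.794), and their arrays overlapped. Day 22 and SCGB3A2- did not pass either (0.97 ± 0.34, adjusted p = 0.122), though their arrays did not overlap. The SE pools the spread of all 5 groups, and the standard deviation was 0.88 at day 0, 0.37 at day 22 and 0.41 in SCGB3A2- cells.

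SHH also differed between the sorts of day 36, whose arrays did not overlap. It was 1.16 ± 0.31 (2.23-fold) higher in SCGB3A2+ cells, with limma's adjusted p = 0.0175. This call ended without SCGB3A2- A (adjusted p = 0.0535), without SCGB3A2- B (0.0758) and without SCGB3A2+ C (0.0674). The difference between SCGB3A2- and day 22 passed without either day 0 array or both (0.0427).

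PTCH1, the receptor and a GLI target, had its highest mean in stem cells and no peak at day 15. It read 6.49 and 6.21 at day 0, 6.06 and 5.83 at day 15, and 5.38 and 5.0003 at day 22 (A, then C). At day 36 it read 5.15, 5.14 and 4.98 in SCGB3A2+ cells and 5.61, 5.92 and 5.60 in SCGB3A2- cells. While SHH was 102-fold higher at day 15, PTCH1 differed by -0.41 ± 0.18 (95% interval -0.81 to -0.01, adjusted p = 0.12), its day 15 arrays lying below those of day 0. With the values quantile-normalized again the difference of -0.52 passed (adjusted p = 0.0396). From day 15 to day 22 PTCH1 fell by 0.75 (SE 0.18, adjusted p = 0.0133). That call ended without day 15 B (adjusted p = 0.108) or day 22 C (0.125).

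Between the day 36 sorts the receptor ran opposite to the ligand. PTCH1 was lower in SCGB3A2+ than in SCGB3A2- cells by 0.62 on the log2 scale (-0.62 ± 0.15, 1.54-fold, adjusted p = 0.0108), and the 2 sets of arrays did not overlap. Without SCGB3A2- B the difference was -0.52 (adjusted p = 0.0539). By mean, PTCH1 ran from day 0 through day 15, SCGB3A2- and day 22 down to SCGB3A2+. No neighbours in that order passed the test, while day 0 and SCGB3A2+ differed by 1.26 ± 0.17 (adjusted p = 7.45e-05).

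SMO, the membrane protein that PTCH1 restrains, read between 6.58 and 6.69 up to day 15 and was lower at day 22. Its arrays read 6.65 and 6.69 at day 0, 6.66 and 6.58 at day 15, and 5.36 and 5.82 at day 22. SCGB3A2+ cells read 4.45, 4.79 and 4.98, below all other arrays, and SCGB3A2- cells read 6.04, 6.26 and 6.35, above both day 22 arrays. The difference from day 0 to day 15 was -0.05 ± 0.20 (95% interval -0.50 to 0.39). From day 15 to day 22 SMO fell by 1.03 (SE 0.20, 2.04-fold, adjusted p = 0.00393).

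Between the day 36 sorts SMO, like PTCH1, was lower in SCGB3A2+ cells, by 2.78-fold (-1.47 ± 0.17, adjusted p = 7.51e-05). Against day 22 it was lower in SCGB3A2+ cells (-0.85 ± 0.19, adjusted p = 0.0109), a call that ended without day 22 C (0.142) and with only the arrays compared (0.0603). In SCGB3A2- cells its difference from day 22 was 0.62 ± 0.19 (adjusted p = 0.066), which passed without SCGB3A2+ A (0.0465). Of the neighbours in its order of means (day 0, day 15, SCGB3A2-, day 22, SCGB3A2+), only day 22 and SCGB3A2+ passed the test. The SCGB3A2- arrays overlapped neither those of day 15 nor those of day 22.

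GLI1, the activator that is itself a target and a common readout of the pathway, was highest in stem cells. It read 4.32 and 3.36 at day 0, 2.60 and 2.19 at day 15, and 2.71 and 2.74 at day 22. SCGB3A2+ arrays read 2.55, 1.89 and 2.17 and SCGB3A2- arrays 2.56, 2.31 and 2.09. Both day 0 arrays lay above the 10 others, which all lay below 2.96, the 40th percentile of all values. From day 0 to day 15, as SHH rose, GLI1 fell by 1.45 (SE 0.30, 2.72-fold, adjusted p = 0.00300). Among the 4 later groups no neighbours in the order of means passed the test, though the arrays of day 22 and day 15 did not overlap. SCGB3A2+ and SCGB3A2- differed by -0.12 ± 0.25 (95% interval -0.66 to 0.42). The difference of day 22 from day 0 (-1.12 ± 0.30, adjusted p = 0.0115) ended without day 0 A (0.104) or day 22 A (0.0529).

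GLI2, which carries most of the activator function in mice, was likewise higher at day 0 than in each later group. It read 6.28 and 4.72 at day 0 and 2.82 and 3.51 at day 15. At day 22 it read 2.77 and 3.16, in SCGB3A2+ cells 2.63, 3.01 and 2.58, and in SCGB3A2- cells 2.40, 2.66 and 2.57. Both day 0 arrays lay above all others, and they also lay far apart from each other. GLI2 fell from day 0 to day 15 by 2.33 (SE 0.40, 5.03-fold, adjusted p = 8.45e-04), with a difference of -1.55 without day 0 A and -3.11 without day 0 C. Its group means of 2.54 in SCGB3A2- and 2.74 in SCGB3A2+ cells lay below 2.96, the 40th percentile of all values. So did the arrays day 15 B and day 22 A. The lowest group, SCGB3A2-, differed from day 0 by -2.95 ± 0.37, or -2.17 without day 0 A and -3.73 without day 0 C. Among the 4 later groups no neighbours in the order of means passed the test, and SCGB3A2+ differed from SCGB3A2- by 0.19 ± 0.33 (95% interval -0.52 to 0.91).

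GLI3, the factor best known as the repressor of the pathway, separated the sorts of day 36. It read 5.62, 5.95 and 5.07 in SCGB3A2+ cells, against 3.72, 3.94 and 3.33 in SCGB3A2- cells. Earlier it read 5.74 and 5.34 at day 0, 4.73 and 4.09 at day 15, and 4.02 and 3.76 at day 22. Every SCGB3A2+ array lay above every array of day 15, day 22 and SCGB3A2-, and the SCGB3A2+ and day 0 arrays overlapped. The sorts differed by 1.89 ± 0.25 (3.70-fold, adjusted p = 2.35e-04), and SCGB3A2+ cells were 1.66 ± 0.28 (3.16-fold) above day 22 (adjusted p = 0.00281). SCGB3A2- cells and day 22 differed by -0.23 ± 0.28 (95% interval -0.84 to 0.38). These RNA values do not tell the full-length protein from the repressor.

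Earlier, GLI3 fell from day 0 to day 15 by 1.13 (SE 0.30, adjusted p = 0.0141). That call ended without day 0 A (adjusted p = 0.0836), without day 15 C (0.134) and with array weights (0.0511). In order of means SCGB3A2+ and day 0 did not pass limma's test (0.01 ± 0.28, adjusted p = 0.983), and day 0 lay above day 15. No neighbours among day 15, day 22 and SCGB3A2- passed, though the arrays of day 15 and day 22 did not overlap. SCGB3A2+ also lay above day 15 (1.14 ± 0.28, adjusted p = 0.00871), but not without day 15 C (0.121).

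HHIP, which encodes a membrane protein that binds and sequesters Hedgehog ligands, stayed low on all arrays. It read 2.02 and 2.04 at day 0, 1.46 and 1.51 at day 15, and 1.51 and 1.12 at day 22. SCGB3A2+ arrays read 1.37, 1.4985 and 1.60, and SCGB3A2- arrays 1.38, 1.53 and 1.4975. The day 0 arrays lay above all others, which overlapped. HHIP was lower at day 15 than at day 0 (-0.54 ± 0.16, adjusted p = 0.0193), a call that ended without day 0 C (0.0613), day 15 B (0.0958) or day 15 C (0.0684). It also ended with the replicate block (0.0503), array weights (0.0557), quantile normalization again (0.0590) and only the arrays compared (0.0762). The sorts differed by 0.02 ± 0.14 (95% interval -0.25 to 0.30).

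**Figure D2:**
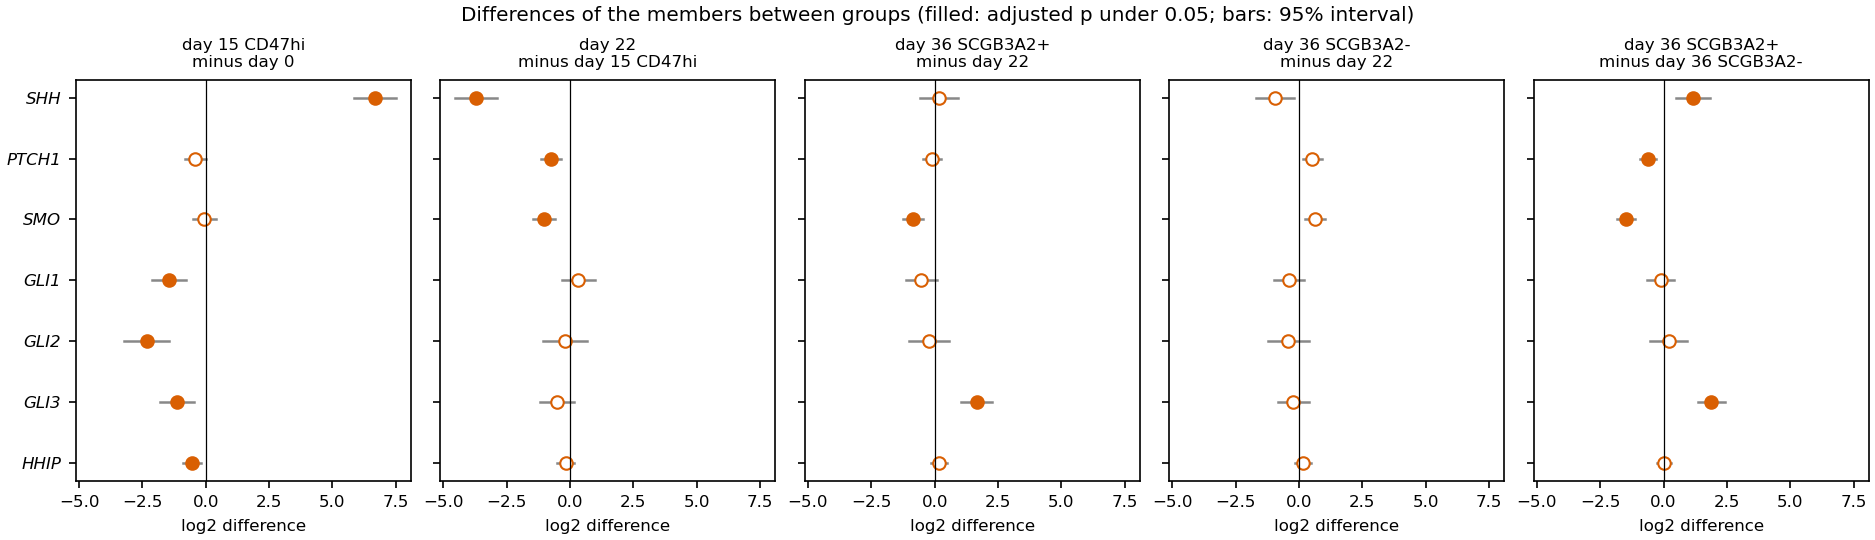
Log2 difference (horizontal axis) of each member in the 5 comparisons, each named as first group minus second; filled points have an adjusted p under 0.05 and bars are 95% intervals. The difference of SHH at day 15 (6.68) exceeds every other, and in the comparison between the day 36 sorts SHH and GLI3 lie right of 0 while PTCH1 and SMO lie left of it.

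At day 15 against day 0, 1 of 7 was higher (SHH), where 16.2% of all probe sets were, and 4 were lower (GLI1, GLI2, GLI3 and HHIP), where 15.3% of all probe sets were. The calls of GLI3 and HHIP are those that ended under the alternatives given with their values. The median difference of the members was -0.54, against -0.05 over all probe sets. The day 0 group enters this comparison and the other contrasts with day 0 alike, so these share arrays and are not independent of each other. Stem cell markers fell for 7 of 8 over the same step, from an array mean of 7.79 to 7.82 down to 3.64 to 3.74. Of 5 endothelium markers 2 fell (TEK, -5.02, and KDR, -6.42). The other 3 were not called. Their group means were 2.09 to 2.24 at day 0 and 2.01 to 2.37 at day 15, below the 40th percentile of all values. Whether day 0 held endothelial cells was not tested. Mesenchyme markers rose for 7 of 16 and fell for 2, with array means of 3.55 to 3.65 at day 0 and 4.04 to 4.20 at day 15. COL3A1 (1.79) and POSTN (2.92) were among those that rose, and COL1A2 (-2.16) and PDGFRB (-2.07) were those that fell. Epithelium markers rose for 6 of 8 (3 with only the arrays compared), and all 6 lung progenitor and all 6 liver markers rose. The part of these cell types in the changes of the members was not tested, and in bulk RNA fewer cells of a type and less RNA per cell cannot be told apart.

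At day 22 against day 15, limma called none of the 7 members higher, where 8.95% of all probe sets were, also at an unadjusted p under 0.05 (0 genes), and called 3 lower (SHH, PTCH1 and SMO), where 10.6% of all probe sets were. The median difference was -0.52, against -0.01 over all probe sets. GLI1 differed by 0.33 ± 0.30, GLI2 by -0.20 ± 0.40, GLI3 by -0.52 ± 0.30 and HHIP by -0.17 ± 0.16, none past the test. Mesenchyme markers fell for 7 of 16 and rose for 1 over this step. Their mean ran from 4.04 to 4.20 on the day 15 arrays and from 3.21 to 3.39 on those of day 22, and 10 of the 16 had a group mean above the 40th percentile of all values at day 15 and 7 at day 22. COL1A1 (-2.59), PDGFRA (-1.72) and COL1A2 (-1.20) were among those that fell, and LUM (3.72) was the one that rose. Liver markers rose for all 6, from means of 4.69 to 5.79 to means of 10.4 to 10.8. The part of either cell type in the fall of SHH, PTCH1 and SMO was not tested.

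For the sorts of day 36 against day 22, which share the day 22 arrays, the counts were small. In SCGB3A2+ cells 1 of 7 members was higher (GLI3), where 6.75% of all probe sets were, and 1 was lower (SMO), where 7.71% were. In SCGB3A2- cells limma called none of the 7 higher or lower, where 3.75% and 4.15% of all probe sets were called. At an unadjusted p under 0.05, 2 members were higher there (PTCH1, 0.52 ± 0.17, and SMO, 0.62 ± 0.19) and 1 lower (SHH, -0.97 ± 0.34), with adjusted p of 0.0887, 0.066 and 0.122. Over the same steps, airway secretory markers rose for 4 of 6 and lung progenitor markers rose for 4 and fell for 1 of 6 in SCGB3A2+ cells, where liver markers fell for 3 of 6. Without day 22 C, 1 lung progenitor marker rose and 1 liver marker fell. Without day 22 A, SCGB3A2+ A or SCGB3A2+ B, 2 lung progenitor markers rose. In SCGB3A2- cells lung progenitor markers fell for 4 of 6, and 1 of 6 airway secretory and 1 of 6 liver markers fell. The airway secretory list holds SCGB3A2, the gene of the sort. Its mean was 5.79 at day 22, 9.11 in SCGB3A2+ and 2.32 in SCGB3A2- cells, so its part in these counts was set by the sorting. The part of these cell types in the changes of SMO and GLI3 was not tested.

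Between the sorts themselves, 2 of 7 were higher in SCGB3A2+ cells (SHH and GLI3), where 10.1% of all probe sets were, and 2 were lower (PTCH1 and SMO), where 12.8% were. The arrays of the sorts did not overlap for these 4 genes and overlapped for GLI1, GLI2 and HHIP. The share of all probe sets without overlap was not counted, so this describes single genes and not the members as a set. The median difference was 0.02, as it was over all probe sets (0.02). Lung progenitor markers were higher in SCGB3A2+ cells for 5 of 6 (means of 8.33 to 8.37 against 6.21 to 6.38). Liver markers were lower for 3 of 6 (9.02 to 9.55 against 9.92 to 10.6). Mesenchyme markers were higher for 1 (LUM) and lower for 1 (ACTA2) of 16, with means of 3.16 to 3.19 and 2.98 to 3.17. Whether the makeup of the sorts has a part in the differences of the 4 members was not tested.

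The rest of the pathway was described in 5 lists, with values shown by list and comparison in the plot of other pathway genes. Each count stands against the share of all probe sets called. This was 16.2% higher and 15.3% lower at day 15 against day 0. At day 22 against day 15 it was 8.95% higher and 10.6% lower. Between the sorts it was 10.1% higher and 12.8% lower. Among other ligands and genes of ligand release, 3 of 7 rose and 1 fell from day 0 to day 15, with a list median of 0.49. SCUBE3, a secreted protein whose family helps release the lipid-modified ligand, read 3.76 and 3.28 at day 0 and 7.32 and 6.93 at day 15. Its arrays did not overlap, and it rose by 3.601 ± 0.19 (adjusted p = 1.31e-07). HHAT, the acyltransferase that attaches palmitate to the ligand, rose by 1.59 ± 0.19 (adjusted p = 6.61e-05), from 2.94 and 3.00 to 4.74 and 4.38. SCUBE3 stood lower in SCGB3A2+ than at day 22 (-1.18 ± 0.18, adjusted p = 0.00153) and than in SCGB3A2- cells (-0.79 ± 0.16, adjusted p = 0.00347). Between the sorts 1 of 7 was higher and 2 were lower in SCGB3A2+ cells. The second lower gene was IHH, the Indian hedgehog ligand, at 2.73, 2.28 and 2.69 against 3.98, 4.18 and 4.45 (-1.64 ± 0.43, adjusted p = 0.0164, and 0.0624 without SCGB3A2- C, 0.0536 without SCGB3A2+ B). Its SCGB3A2+ arrays all lay below 2.96, the 40th percentile of all values, and its day 22 arrays lay far apart (2.58 and 4.48).

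**Figure D3:**
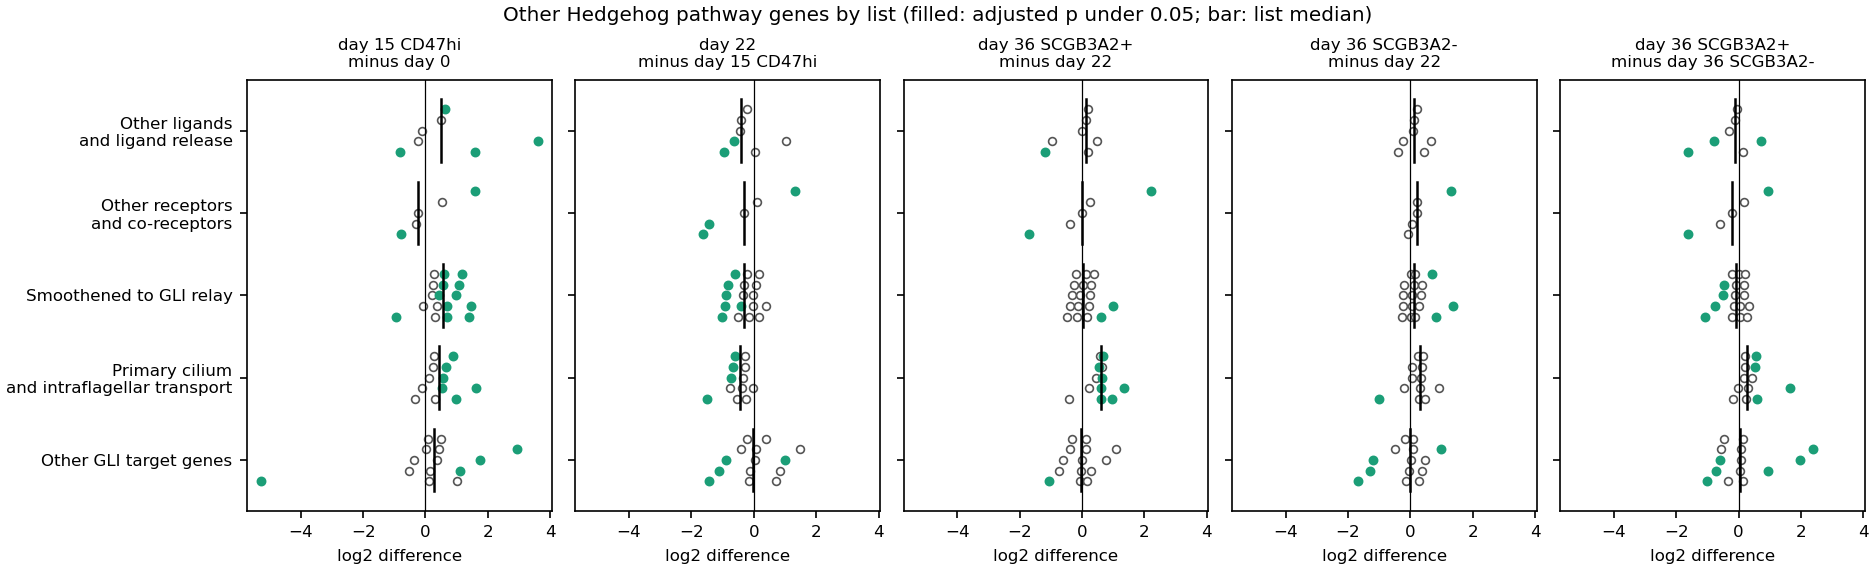
Log2 differences (horizontal axis) of the genes of 5 other pathway lists (vertical axis) in the 5 comparisons; each point is a gene, filled where its adjusted p was under 0.05, and black bars are list medians. At day 15 the relay and cilium lists lie mostly right of 0, with medians of 0.55 and 0.42, and SFRP1 lies far left among the other targets.

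Among the other receptors and co-receptors, 5 of 6 listed genes were measured, and 1 rose and 1 fell at day 15, with a list median of -0.22. GPC3, a glypican that competes with PTCH1 for ligand, read 9.49 and 9.68 at day 22. It read 8.91, 9.79 and 9.87 in SCGB3A2- cells but 7.64, 8.39 and 7.65 in SCGB3A2+ cells, where it was lower than at day 22 (-1.69 ± 0.29, adjusted p = 0.00311) and than in SCGB3A2- cells (-1.63 ± 0.26, adjusted p = 8.07e-04). LRP2, an endocytic receptor that binds SHH, rose from day 22 (4.27 and 4.06) to SCGB3A2+ cells (7.04, 6.15 and 5.95) by 2.21 ± 0.30 (adjusted p = 9.76e-04). SCGB3A2- cells, at 5.20 to 5.75, also stood above both day 22 arrays, as did the day 15 arrays (5.28 and 5.89). LRP2 was 0.93 ± 0.27 higher in SCGB3A2+ than in SCGB3A2- cells (adjusted p = 0.0279). That call ended without SCGB3A2- A (0.1), SCGB3A2- B (0.0802) or SCGB3A2+ A (0.0932).

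In the relay from SMO to the GLI proteins, 10 of 17 measured genes rose and 1 fell at day 15, with a list median of 0.55, beside a median of -0.05 over all probe sets. SUFU, which holds GLI proteins in the cytoplasm, rose by 1.18 ± 0.16 (adjusted p = 1.43e-04), from 4.44 and 3.99 to 5.40 and 5.39. The kinase genes GSK3B (0.99 ± 0.13) and PRKACA (1.46 ± 0.21), whose products phosphorylate GLI proteins ahead of their processing, rose as well. So did IQCE (1.41 ± 0.18), which anchors the EVC complex at the cilium. The count of 10 was 6 without day 15 B and 5 with only the arrays compared. From day 15 to day 22, 6 of 17 fell, among them SUFU (-0.83 ± 0.16, adjusted p = 0.00303) and STK36 (-1.01 ± 0.16), but 3 without day 15 B, day 15 C or day 22 C. Between the sorts 4 of 17 were lower in SCGB3A2+ cells, including EVC (-1.07 ± 0.17, adjusted p = 6.73e-04), which binds SMO at the cilium, and the kinase subunit PRKACB (-0.76 ± 0.12, adjusted p = 7.68e-04). Without SCGB3A2+ C, 2 were lower.

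Cilium genes, needed for SMO to act, rose for 6 of 12 at day 15 and 6 did not pass, with a median of 0.42, beside -0.05 over all probe sets. IFT88, an intraflagellar transport protein, rose by 1.63 ± 0.15 (adjusted p = 6.87e-06), from 4.0003 and 4.02 to 5.58 and 5.71. IFT140 rose by 0.96 ± 0.17 and IFT122 by 0.88 ± 0.15. The count of 6 was 3 without day 0 C, without day 15 B or with only the arrays compared. In SCGB3A2+ cells against day 22, 7 of 12 rose (6.75% of all probe sets did), but none without day 22 C, 4 without SCGB3A2+ B and 2 with only the arrays compared. Against SCGB3A2- cells 4 of 12 were higher (2 without SCGB3A2- B, SCGB3A2- C or SCGB3A2+ A). DYNC2H1, the motor of retrograde transport in the cilium, read 5.95, 6.19 and 6.05 in SCGB3A2+ cells and 4.53, 4.52 and 4.20 in SCGB3A2- cells, a difference of 1.64 ± 0.20 (adjusted p = 1.32e-04). KIF3A, a motor of anterograde transport, differed by 0.57 ± 0.12 (adjusted p = 0.00396).

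Of 14 other genes known as GLI targets, 3 rose (5 without day 15 B) and 1 fell at day 15 against day 0, with a median of 0.27, counts near the shares of all probe sets (16.2% and 15.3%). BMP4, a growth factor, rose by 2.94 ± 0.28 (adjusted p = 1.08e-05), and the cyclins CCND2 (1.75 ± 0.26) and CCND1 (1.10 ± 0.16) rose too. SFRP1, a secreted Wnt inhibitor, fell by 5.28 (SE 0.22, adjusted p = 1.90e-08). Of the 14, 9 had a group mean above the 40th percentile of all values at day 0 and 10 at day 15, so low signal limits the others. FOXF1, a GLI target of lung mesenchyme in mice, was looked at after its values were seen. It read 2.75 and 3.26 at day 0 and from 2.42 to 2.75 on all later arrays, and passed the test in none of the 5 comparisons, with a difference of -0.36 ± 0.18 at day 15. All its later arrays lay below 2.96, the 40th percentile of all values, so a response could be missed. At day 22 against day 15, 1 rose and 3 fell (1 without day 15 C or day 22 A), with MYCN, a transcription factor, at -1.43 ± 0.20 (adjusted p = 4.89e-04).

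Between the day 36 sorts 3 of these 14 targets were higher and 3 lower in SCGB3A2+ cells, with a median of 0.05. BMP4 read 7.33, 7.29 and 7.10 in SCGB3A2+ cells and 5.26, 5.34 and 5.21 in SCGB3A2- cells (1.97 ± 0.23, adjusted p = 9.42e-05). OSR1, a transcription factor of early foregut and mesoderm, read 5.72, 5.03 and 5.50 against 3.10, 2.91 and 3.09 (2.38 ± 0.31, adjusted p = 2.22e-04). WNT5A, a noncanonical Wnt ligand, was higher by 0.94 ± 0.21 (adjusted p = 0.00754). CCND1 was lower (-0.71 ± 0.13, adjusted p = 0.00179), with 9.23, 9.16 and 9.42 against 10.14, 9.95 and 9.85. The 3 lower calls became 1 without SCGB3A2- C and 5 with array weights. The arrays of the sorts did not overlap for BMP4, OSR1 or CCND1.

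**Figure D4:**
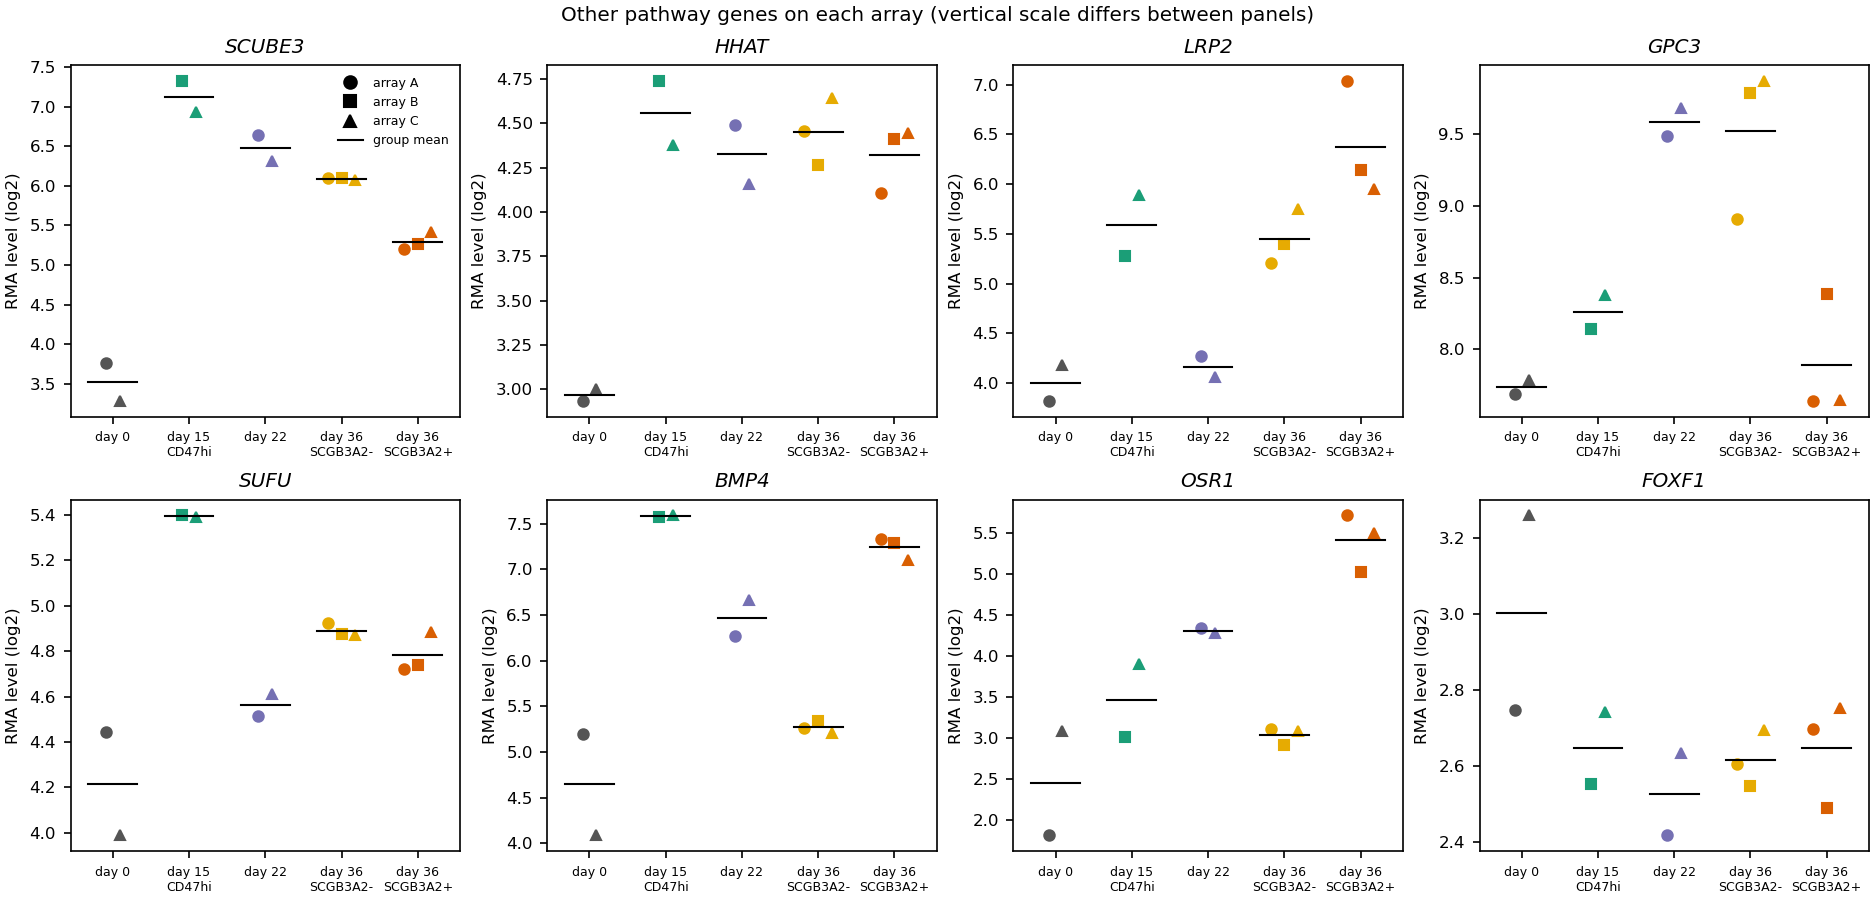
RMA level (log2, vertical axis) of 8 other pathway genes on the 12 arrays, by group, chosen for display after their values were seen; symbols give the replicate letter, black bars the group mean, and the vertical scale differs between panels. SCUBE3 is highest at day 15 (7.32 and 6.93), GPC3 parts the sorts downward and OSR1 and BMP4 upward in SCGB3A2+ cells, and FOXF1 stays between 2.42 and 3.26.

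For each member, the 3 named genes past the F-test with the most similar profile were found by Pearson's r over the 12 arrays, among 11599 candidates. The arrays fall into 5 groups, so r mostly describes the order of group means, and no p is given. SHH was nearest to BMF (0.970), ZFP36L1 (0.967) and TULP4 (0.959), with BMF means of 4.85, 7.84 and 5.87 at days 0, 15 and 22. PTCH1 was nearest to ZNF43 (0.974), PCDHGA8 (0.966) and PTPRS (0.962), and SMO to FAM171A2 (0.989), GTF3C2 (0.981) and PTBP1 (0.977). FAM171A2 read 5.87 in SCGB3A2- and 4.53 in SCGB3A2+ cells on average, a gap of the same sign as that of SMO. GLI1 was nearest to SPOCK1 (0.962), ARHGEF6 (0.954) and UGGT1 (0.954), and GLI2 to MIR19B2 (0.980), BUB3 (0.980) and NODAL (0.978). NODAL, a growth factor gene of pluripotent cells, averaged 4.32 at day 0 and 2.55 at day 15. GLI3 was nearest to GPR155 (0.945), AMPH (0.944) and RNF138P1 (0.940), and HHIP to MRPL45P2 (0.963), RET (0.959) and KMT2E-AS1 (0.9498).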

How the data were processed

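Gene expression was measured on 12 Affymetrix arrays. The authors deposited 1 log2 value per probe set and array, made with RMA in affy 1.36.1 and R 2.15.1, per the submitters' processing notes. The annotation release is not given in the sources used here. By RMA the arrays are equalized (medians of 3.66 to 3.75), so a change in total RNA per cell does not show, and differences of low genes are compressed. The platform annotation gave 1 symbol for 22458 probe sets and none for 1328. The labels gave groups and replicate letters, and 0 value columns were left unused.

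Two-sided tests were made with lmFit and eBayes of limma 3.58.1 under R 4.3.3, with 1 mean per group and all arrays together. p-values were adjusted by Benjamini-Hochberg over the 23786 probe sets, and the threshold was 0.05. The script was tested on simulated data. Arrays have no sequencing depth, and precision is limited by how many there are.

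The members, 5 other pathway lists and 8 marker lists (119 other genes, 114 measured) were chosen with earlier results of these data known. The text names all members, of each other list up to 4 genes with the smallest adjusted p among those called in a comparison, and the 3 nearest profiles. Outside this rule stand FOXF1, looked at after its values were seen, and SCGB3A2 and CD47, named as genes of the sorts. Promoter sequences are RefSeq's for GRCh38.p14.

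Same-letter arrays of the day 36 sorts deviated together only weakly (r = 0.104, 0.124 and 0.111). Those of day 22 and SCGB3A2- did so as much (r = 0.126 and 0.114), and those of day 22 and SCGB3A2+ less (0.0302 and 0.0584). Pairing by letter was thus not established for any groups. The p-values come from fits without pairing, except where the replicate block is named. As alternatives the fit was limited to the arrays compared, given an intensity trend and robust variances, or given array weights; others were a filter at the 40th percentile, 2 scalings, the replicate block and leaving out each array. Leaving out both day 0 arrays, the alternatives for the other 5 pairs of groups and those for the listed genes were added after seeing the data.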

Additional observations from a re-analysis of the deposited data

Results flagged for a closer look

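For 4 of the 7 members the change from day 22 to day 36 differed between the SCGB3A2+ and the SCGB3A2- sorts. Since both changes are taken from the same day 22 arrays, the test of the difference is the comparison of the sorts. In it 10.1% of all probe sets were called higher and 12.8% lower in SCGB3A2+ cells. SHH changed by 0.19 in SCGB3A2+ and by -0.97 in SCGB3A2- cells, a difference of 1.16 (limma's adjusted p = 0.0175). GLI3 changed by 1.66 and -0.23, a difference of 1.89 (adjusted p = 2.35e-04). PTCH1 changed by -0.10 and 0.52, a difference of -0.62 (adjusted p = 0.0108). SMO changed by -0.85 and 0.62, a difference of -1.47 (adjusted p = 7.51e-05). The call of SHH ended without SCGB3A2- A (limma's adjusted p = 0.0535), SCGB3A2- B (0.0758) or SCGB3A2+ C (0.0674). That of PTCH1 ended without SCGB3A2- B (0.0539). No group held 4 or more arrays, so a search for single outlying arrays was not made.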

How the results depend on the processing

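Over 70 comparisons of the members between groups, refitted under up to 20 alternatives, 1251 of 1313 values kept direction and side of the threshold, 22 lost the call, 12 gained it and 28, in 13 comparisons, changed sign. None of those 28 was called before or after. With arrays left out, GLI1 ran from -0.28 to 0.13 in SCGB3A2- and from -0.39 to 0.00785 in SCGB3A2+ cells against day 15, and from -0.29 to 0.0409 between the sorts. GLI2 at day 22 against day 15 ran from -0.54 to 0.14. GLI3 in SCGB3A2+ cells against day 0 ran from -0.19 to 0.25, and was -0.0307 with quantile normalization again and -0.15 with the replicate block. HHIP ran from -0.36 to 0.0204 at day 22 against day 15, from -0.0525 to 0.0248 in SCGB3A2- and -0.0537 to 0.0622 in SCGB3A2+ cells against day 15, from -0.0418 to 0.34 and -0.0180 to 0.37 in these against day 22, and from -0.0323 to 0.0836 between the sorts. With quantile normalization again HHIP was 0.000493 and -0.0226 in these sorts against day 15 and -0.0231 between them, and in SCGB3A2+ cells against day 15 it was -0.00684 with array weights and -0.00419 with arrays centred. In SCGB3A2+ cells against day 22, PTCH1 ran from -0.29 to 0.0889 and SHH from -0.0680 to 0.45. At day 15 against day 0 the 5 members called became 3 with array weights and 3 to 5 with single arrays left out. In SCGB3A2+ cells against day 22 the 2 called became 1 with only the arrays compared, and 1 to 2 with arrays left out. In SCGB3A2- cells against day 22 the 0 called became 1, SMO higher, with the intensity trend, with array weights and without SCGB3A2+ A. The filter on low values (16116 probe sets kept) also gave SMO. Without both day 0 arrays the 1 called was SHH, lower. Between the sorts the 4 called ran from 2 to 4, with 2 without SCGB3A2- B. At day 22 against day 15 they ran from 2 to 3. The F-test called 6 of 7 with array weights, HHIP being the member lost. After the filter HHIP was no longer tested, and the other 6 passed. Over all probe sets, 4643 calls at day 22 against day 15 became 2859 to 3017 without day 15 B, day 15 C or day 22 C. In SCGB3A2- cells against day 22, 1878 became 935 to 1158 without day 22 A, day 22 C, SCGB3A2- B or SCGB3A2- C. In SCGB3A2+ cells against day 22, 3439 became 1869 with only the arrays compared, 1012 without day 22 C and 2193 without SCGB3A2+ A. The replicate block changed no call of a member in the 5 comparisons except HHIP at day 15 against day 0 (-0.55, adjusted p = 0.0503), and outside them made calls of GLI3 in SCGB3A2- against day 15 (0.00356) and SMO in SCGB3A2- against day 0 (0.0298). The cause of these changes was not tested, beyond the fewer arrays that some fits hold. Low signal limits GLI1 after day 0, GLI2 in both day 36 sorts, SHH on day 0 A and HHIP throughout. Among other named genes it limits FOXF1 after day 0 and IHH in SCGB3A2+ cells.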
